A study of Arabidopsis thaliana with 10 samples.

Results

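Aux/IAA proteins are the short-lived repressors at the core of the auxin response, and the transcripts of 10 of their genes are described here: IAA1, IAA2, IAA3, IAA5, IAA6, IAA7, IAA14, IAA17, IAA19 and IAA29. The genes were taken by locus identifier from an RNA count table of 73194 features, and all 10 were present and passed the filter on low counts. The table compares 5-day-old whole seedlings of Arabidopsis thaliana, ecotype Ler, in 2 genotypes with 3 libraries each. One genotype is E5-4, which the labels treat as wild type (WT below), and the other is homozygous fve-8. Both grew untreated on MS medium, and the labels describe neither what else E5-4 carries nor whether the numbered repeats were separate cultures, so that p-values measure the spread between these libraries, which may be technical. The FVE product, a WD40-repeat protein, works together with histone deacetylases and is mostly studied for its part in flowering time.

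Without auxin, Aux/IAA proteins bind auxin response factors (ARFs) at auxin-responsive promoters and recruit TOPLESS-type corepressors. Auxin joins a TIR1/AFB receptor to the degron of an Aux/IAA protein, the protein is ubiquitinated and broken down, and the ARF is freed. Many Aux/IAA genes are themselves switched on by auxin, which closes a feedback loop, and stabilised forms of the proteins give auxin-resistant seedlings with short hypocotyls, agravitropic roots or no lateral roots.

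Of the 10 genes, 2 rose in fve-8, 1 fell and 7 were not called. IAA2 rose 2.23-fold and IAA1 1.65-fold, while IAA19 fell to 0.697 of its WT level. A call means an adjusted p under 0.05 in edgeR's quasi-likelihood test, fitted and adjusted over all 19543 tested features. Over those features 6.60% were called higher and 5.07% lower. The median log2 fold change of the 10 genes was -0.19, beside -0.01 for all tested features. In the authors' deposited table, at the same threshold, 2 of the 10 genes were also higher and 1 lower.

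**Figure D1:**
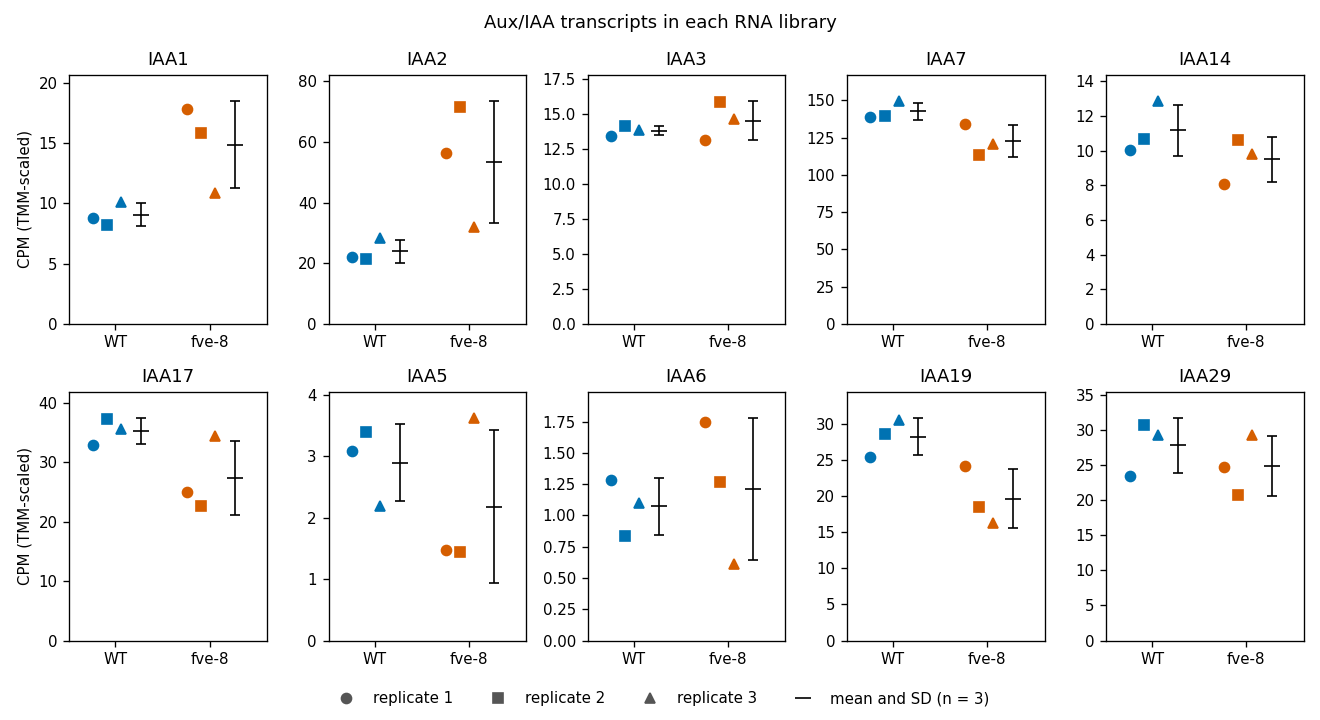
Expression of the 10 Aux/IAA genes in each RNA library, in CPM (read counts scaled to the TMM-adjusted library size, linear axis from 0, separate scale per gene), with symbols for replicates 1 to 3 and the mean and SD of 3 libraries. IAA1 and IAA2 are higher in every fve-8 library than in every WT library, IAA7 and IAA19 are lower in every fve-8 library, and fve-8 replicate 3 lies closer to WT than the other fve-8 libraries for IAA1, IAA2, IAA5 and IAA17.

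A few facts of the libraries touch every value below. Library totals ran from 16161800 to 19599058 counts. FVE itself (AT2G19520) stood at 9.97, 8.67 and 9.0 CPM in WT and at 6.61, 5.63 and 5.40 CPM in fve-8, all below WT (log2 fold change -0.65 ± 0.14, edgeR adjusted p = 0.0184), a call that any 1 WT library or fve-8 replicate 2 ended when left out, as did library totals (-0.31, adjusted p = 0.178). Plastid transcripts took 44.9% to 45.9% of counts in WT and 33.0% to 38.5% in fve-8. Scaling matters: with library totals in place of TMM the median log2 fold change of all tested features moved from -0.01 to 0.33. The part of the plastid share in that move was not tested. The library fve-8 replicate 3 stood apart, with 2.07% of its counts on non-coding loci against 0.677% to 0.830% in the other 5 libraries. Reads that map to more than 1 member of a gene family may have been shared or dropped in the authors' counting, for which no source used here gives the mode. In whole seedlings, fewer cells of a type and less RNA per cell cannot be told apart.

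IAA2 (AT3G23030), an early auxin-induced gene whose promoter is widely used as an auxin reporter, had the largest change among the 10 genes. Its level was 22.1, 21.4 and 28.4 CPM in WT replicates 1 to 3 and 56.5, 71.6 and 32.0 CPM in fve-8 replicates 1 to 3. The genotypes did not overlap, but fve-8 replicate 3 exceeded the highest WT library by far less than the other fve-8 libraries did. The log2 fold change was 1.16 ± 0.25 (SE, n = 3 per genotype, edgeR adjusted p = 0.0189), and 1.91% of tested features had a larger rise. The authors' deposited table gives a log2 fold change of 1.17 with an adjusted p of 4.46e-05. Leaving out WT replicate 1 ended the call of IAA2 (1.1, adjusted p = 0.104), as did leaving out WT replicate 2 (1.08, adjusted p = 0.106) and leaving out fve-8 replicate 2 (0.89, adjusted p = 0.0681).

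IAA1 (AT4G14560), the closest relative of IAA2, is the gene in which the auxin-resistant axr5 mutation lies. It stood at 8.81, 8.22 and 10.1 CPM in WT and at 17.9, 15.8 and 10.9 CPM in fve-8. As with IAA2 the genotypes did not overlap, and fve-8 replicate 3 lay just above the highest WT library. The log2 fold change was 0.72 ± 0.18 (edgeR adjusted p = 0.0327). That call held without fve-8 replicate 3 (0.91, adjusted p = 0.000562) and was lost when any of the other 5 libraries was left out, where the log2 fold change ranged from 0.57 to 0.80.

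IAA3 (AT1G04240), also known as SHY2, restrains cell division at the root tip where auxin and cytokinin signals meet. It belongs to the same sequence clade as IAA1, IAA2 and IAA4, but its levels of 13.4, 14.1 and 13.8 CPM in WT and 13.1, 15.8 and 14.6 CPM in fve-8 overlapped. Its log2 fold change was 0.08 ± 0.11 (edgeR adjusted p = 0.710). With library totals IAA3 was called higher (0.41, adjusted p = 0.0473), close to the median feature under that scaling. IAA4 (AT5G43700), which is not among the 10 genes, averaged 18.4 ± 0.438 CPM over the WT libraries and 22.8 ± 2.42 CPM over those of fve-8 (± SD). Its log2 fold change of 0.31 ± 0.11 was not called (edgeR adjusted p = 0.0950). The 4 genes of the clade therefore all had log2 fold changes above 0, from 0.08 to 1.16, with 2 called. The grouping by clade was chosen after the values were seen.

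The clade of IAA7, IAA14, IAA16 and IAA17 held the opposite sign, with log2 fold changes from -0.37 to -0.05 and none of the 4 called by edgeR, DESeq2, the likelihood-ratio test or limma-voom. IAA17 was the 1 with an unadjusted p under 0.05. With library totals the values of IAA7, IAA14 and IAA16 turned to 0.12, 0.11 and 0.28, below the median feature at 0.33. IAA7 (AT3G23050), the AXR2 gene whose gain-of-function mutants are dwarfed and agravitropic, had 1972 to 2676 counts per library and therefore little counting error. It stood at 139, 140 and 149 CPM in WT and at 134, 113 and 121 CPM in fve-8. Every fve-8 library was below every WT library, but the difference was small and not called (-0.22 ± 0.10, edgeR adjusted p = 0.191).

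IAA17 (AT1G04250), the AXR3 gene that acts in root hair growth and gravitropism, stood at 32.9, 37.2 and 35.6 CPM in WT and at 24.9, 22.6 and 34.4 CPM in fve-8. The first and the second fve-8 library lay below all WT libraries and the third lay among them. The log2 fold change was -0.37 ± 0.15 (edgeR adjusted p = 0.138), and without fve-8 replicate 3 the gene was called lower (-0.55, adjusted p = 0.00279). IAA14 (AT4G14550), the SOLITARY-ROOT gene that blocks lateral root initiation when its product is stabilised, had 10.0, 10.7 and 12.8 CPM in WT and 8.09, 10.6 and 9.82 CPM in fve-8, overlapping ranges with a log2 fold change of -0.23 ± 0.15 (edgeR adjusted p = 0.344).

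IAA19 (AT3G15540), the MASSUGU2 gene of hypocotyl growth and tropic bending, was the 1 gene called lower. It stood at 25.5, 28.6 and 30.6 CPM in WT and at 24.2, 18.5 and 16.3 CPM in fve-8. The genotypes did not overlap, with fve-8 replicate 1 close to the lowest WT library and fve-8 replicate 3 the lowest of all. The log2 fold change was -0.52 ± 0.15 (edgeR adjusted p = 0.0488), and -0.51 with an adjusted p of 0.0406 in the authors' deposited table. This call is close to the threshold. It was lost without any 1 WT library or fve-8 replicate 2, where the log2 fold change ranged from -0.59 to -0.46 (adjusted p = 0.115 to 0.165). Library totals also ended the call (-0.18, adjusted p = 0.464).

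IAA5 (AT1G15580) and IAA6 (AT1G52830), relatives of IAA19, had few reads, 28 to 59 and 10 to 33 counts per library. IAA5 stood at 3.09, 3.4 and 2.20 CPM in WT and at 1.48, 1.44 and 3.62 CPM in fve-8. Its highest and its lowest value were both in fve-8, since replicate 3 exceeded every WT library. The log2 fold change was -0.45 ± 0.35 (edgeR adjusted p = 0.442) and became -0.98 with a call (adjusted p = 0.0176) without that library. IAA6, known as SHY1, stood at 1.29, 0.835 and 1.1 CPM in WT and at 1.74, 1.27 and 0.614 CPM in fve-8. Here too the fve-8 libraries held the highest and the lowest value, and the log2 fold change of 0.19 ± 0.37 was not called (edgeR adjusted p = 0.777).

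IAA29 (AT4G32280), which phytochrome-interacting factors (PIFs) switch on in shade and warmth, had 23.4, 30.8 and 29.3 CPM in WT and 24.7, 20.7 and 29.3 CPM in fve-8. The ranges overlapped widely, with a log2 fold change of -0.16 ± 0.15 (edgeR adjusted p = 0.519).

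**Figure D2:**
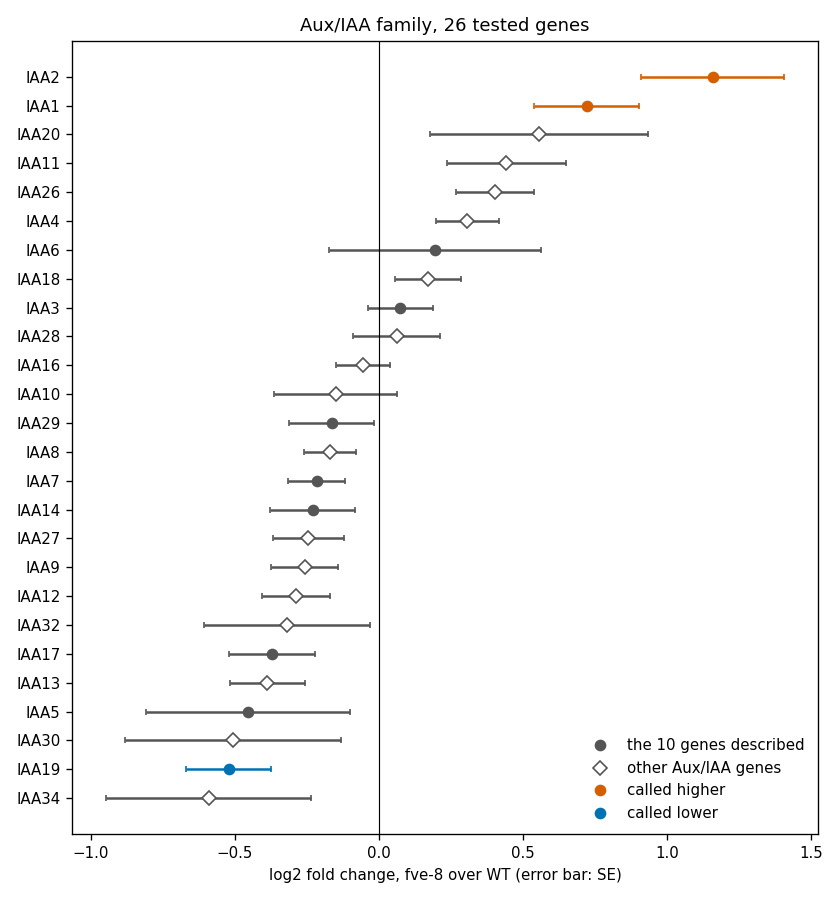
Log2 fold change of fve-8 over WT with its SE for the 26 tested genes of the Aux/IAA family, sorted by value, with filled circles for the 10 genes described and open diamonds for the others. IAA2 at 1.16 and IAA1 at 0.72 are called higher, IAA19 at -0.52 is called lower, and the other 23 genes are not called.

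Among the other 19 genes of the family, 16 passed the count filter and 0 were called with edgeR, DESeq2, the likelihood-ratio test or limma-voom. With edgeR 6.60% of all tested features were called higher and 5.07% lower. An unadjusted edgeR p under 0.05 was found for 4 of the 16. The share of all features under that level was not counted, so the 4 are not a result about the family. The log2 fold changes of the 16 ran from -0.59 to 0.56 with a median of -0.16. IAA15, IAA31 and IAA33 had too few reads to be tested. Without fve-8 replicate 3, IAA4 was called higher (0.36, adjusted p = 0.0337) and IAA13 (AT2G33310) lower (-0.48, adjusted p = 0.0138), beside 12.3% and 10.0% of all features. Without fve-8 replicate 1 IAA9 (AT5G65670) was called lower (-0.37, adjusted p = 0.0434), beside 1023 of 19785 features. With library totals 28.6% of all tested features were called higher. IAA4, IAA11 (AT4G28640), IAA18 (AT1G51950) and IAA26 (AT3G16500) were among them. Their log2 fold changes were 0.65, 0.79, 0.50 and 0.73, beside the median feature at 0.33. These genes, and MYB36 below, were named after their values were seen. By library ranges alone, 2 of the 10 genes were higher and 2 lower in every fve-8 library, and 4 and 4 of the other 16 were. Those shares stand beside 15.6% and 17.4% of all tested features. They are not a result about the family.

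The wider spread within fve-8 was a feature of all 10 genes. The median range between libraries was 0.59 log2 units in fve-8 and 0.32 in WT, and the range was wider in fve-8 for 10 of 10 genes, as it was for 69.5% of all tested features (medians 0.39 and 0.24). Several genes differed between replicate 3 and the other fve-8 libraries. IAA2 stood 1.24 and 1.59 log2 units above the WT mean in fve-8 replicates 1 and 2 and 0.43 above it in replicate 3, and IAA1 stood 0.98, 0.80 and 0.27 above it. IAA5 stood -0.89 and -0.93 from the WT mean in fve-8 replicates 1 and 2 and 0.33 in replicate 3, and IAA17 -0.49, -0.63 and -0.03. IAA19 went the other way, with -0.22, -0.60 and -0.79. Without fve-8 replicate 3 IAA1 and IAA2 were called higher and IAA5, IAA17 and IAA19 lower, 2 and 3 of 10, while 12.3% and 10.0% of all features were called higher and lower. With library totals 3 were called higher and 0 lower, beside 28.6% and 0.982% of features. What sets replicate 3 apart was not tested.

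**Figure D3:**
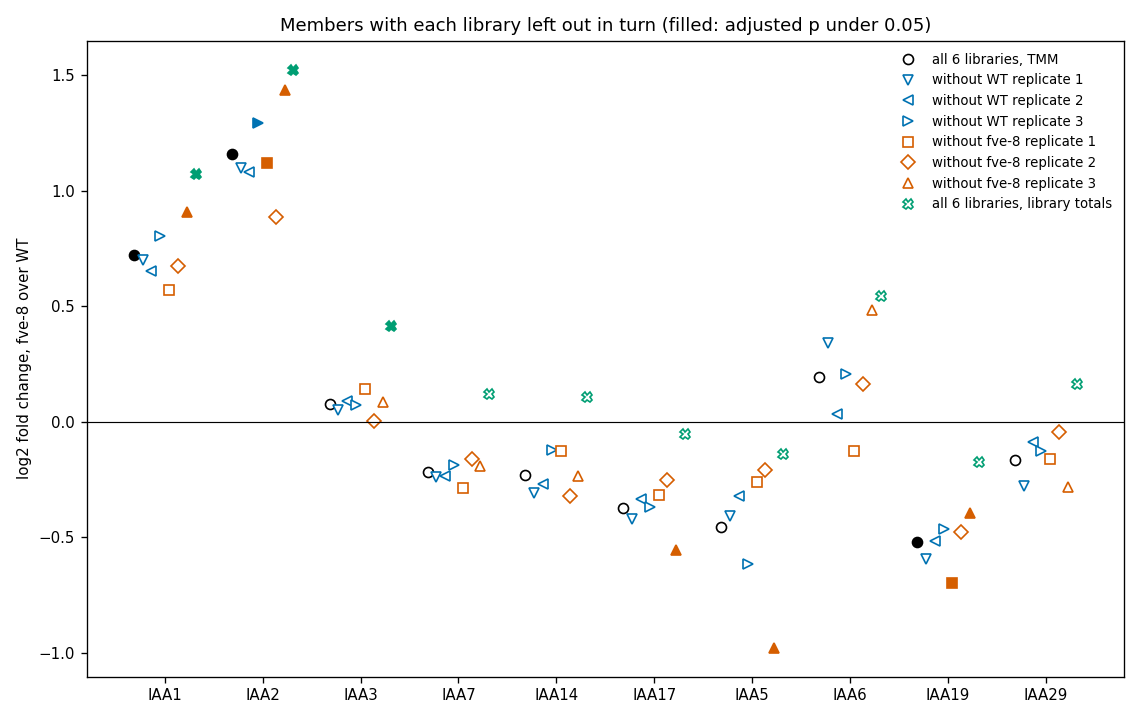
Log2 fold change of fve-8 over WT for each of the 10 genes with all 6 libraries, with each library left out in turn, and with library totals in place of TMM scaling; filled symbols have an adjusted p under 0.05. IAA1 and IAA2 stay above 0 and IAA19 below 0 throughout, their calls come and go with single libraries, and IAA7, IAA14 and IAA29 change sign with library totals.

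In the genome, 6 of the 10 genes lie side by side. In the RefSeq gene order of the TAIR10.1 assembly IAA1 and IAA14 are neighbours on chromosome 4, IAA2 and IAA7 on chromosome 3, and IAA3 and IAA17 on chromosome 1, with 0 other protein-coding genes between them. Each pair joins a gene of the IAA1 to IAA4 clade with one of the IAA7 to IAA17 clade. The ratio of their read counts within a library does not depend on scaling between libraries. Its level also reflects transcript length, and only its change is described, without a test because the pairs were formed after the values were seen.

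The ratio of IAA2 to IAA7 was 0.160, 0.153 and 0.190 in WT and 0.421, 0.633 and 0.265 in fve-8, a mean 2.62 times higher. For IAA1 over IAA14 it was 0.878, 0.771 and 0.786 in WT and 2.21, 1.49 and 1.11 in fve-8, a mean 1.97 times higher. For IAA3 over IAA17 it was 0.408, 0.380 and 0.388 in WT and 0.525, 0.699 and 0.425 in fve-8, a mean 1.40 times higher. In all 3 pairs every fve-8 library was above every WT library, and fve-8 replicate 3 was the lowest of the fve-8 libraries. Across 13714 pairs of neighbouring protein-coding genes with both tested, the ratio did not overlap between genotypes, in either direction, in 31.2%. IAA1 and IAA2, the numerators of 2 of the 3 ratios, are the genes already called higher.

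**Figure D4:**
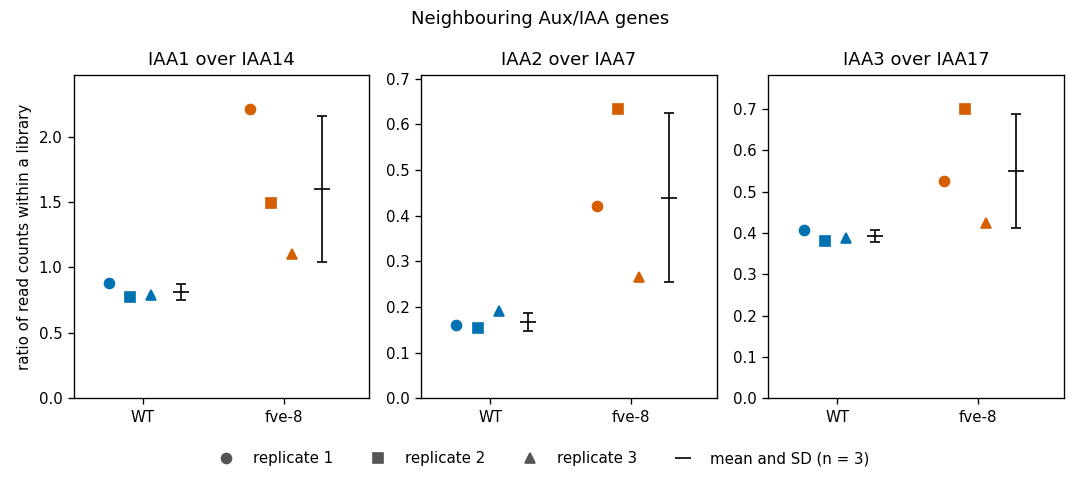
Ratio of read counts between neighbouring Aux/IAA genes within each library (linear axis from 0), with symbols for replicates 1 to 3 and the mean and SD of 3 libraries. Each ratio is higher in every fve-8 library than in every WT library, with means of 0.168 and 0.440 for IAA2 over IAA7.

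Among genes for proteins that act on or with Aux/IAA repressors 4 fell and 0 rose, beside 5.07% and 6.60% of all tested features. Of the 10 tested genes for TIR1/AFB receptors and their ubiquitin ligase 1 fell, the receptor gene AFB5 (AT5G49980, log2 fold change -0.40 ± 0.10, edgeR adjusted p = 0.0285). TIR1 (AT3G62980), the main auxin receptor gene, was at 59.8, 66.9 and 57.7 CPM in WT and 50.7, 52.6 and 51.4 CPM in fve-8, without overlap and not called (-0.25 ± 0.09). AFB1 (AT4G03190), AFB2 (AT3G26810), AFB3 (AT1G12820) and AFB4 (AT4G24390) had log2 fold changes of 0.06, -0.19, -0.24 and -0.21, none called with all 6 libraries. Without fve-8 replicate 3, AFB3 was called lower (-0.36, edgeR adjusted p = 0.0239). In that fit 3 of the 10 receptor and ligase genes were called lower and 0 higher, beside 10.0% and 12.3% of all features. Of 15 ARF genes 2 fell, ARF18 (AT3G61830, -0.71 ± 0.12) and ARF6 (AT1G30330, -0.49 ± 0.11), and of the 5 TOPLESS-type corepressor genes TPR1 (AT1G80490) fell (-0.47 ± 0.09). Every fve-8 library lay below every WT library for 3 of the 10 receptor and ligase genes, 6 of the 15 ARF genes and 5 of the 5 corepressor genes, beside 17.4% of all tested features. The log2 fold changes of the corepressor genes ran from -0.47 to -0.19, and 4 of the 5 were above 0 with library totals. With library totals AFB5, ARF18, ARF6 and TPR1 were not called (adjusted p = 0.0551 to 0.712). Leaving out any 1 WT library ended the calls of AFB5, ARF6 and TPR1, leaving out fve-8 replicate 2 those of AFB5 and ARF6, and leaving out WT replicate 2 that of ARF18.

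Among other early auxin response genes the GH3 and SAUR families are given beside 5.07% of all tested features called lower and 6.60% higher. Of 6 tested GH3 genes, whose products conjugate auxin to amino acids, 5 fell, among them GH3.5 (AT4G27260) from 124, 114 and 126 CPM in WT to 62.7, 58.8 and 64.1 CPM in fve-8 (-0.97 ± 0.09, edgeR adjusted p = 0.000714). GH3.1 (AT2G14960), GH3.2 (AT4G37390) and GH3.3 (AT2G23170) had log2 fold changes of -1.35, -1.35 and -0.88. The value of fve-8 replicate 3 lay beside those of the other fve-8 libraries for GH3.5, unlike for IAA2. The calls of GH3.2, GH3.3 and GH3.5 held with each library left out, and that of GH3.1 ended without any 1 WT library or fve-8 replicate 2. With library totals 4 of the 6 GH3 genes were called lower and 0 higher, beside 0.982% and 28.6% of all tested features. Of 17 tested SAUR genes, small auxin-induced genes of cell elongation, 1 rose, SAUR14 (AT4G38840, 0.56 ± 0.13), with the same dependence on libraries as GH3.1, and 0 fell. The SAUR count is near the share over all features and is not a result about that family. DESeq2 and the likelihood-ratio test each called 2 SAUR genes higher, and 13 of the 17 had log2 fold changes above 0. Their median log2 fold change of 0.23 turned to -0.14 without fve-8 replicate 3. The 1 tested lateral-organ gene of the LBD list was not called.

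Genes that set auxin supply were lower where they were called with all 6 libraries and TMM. Over all tested features 5.07% were called lower and 6.60% higher. Of 9 tested auxin transport genes 4 fell, the influx carrier genes AUX1 (AT2G38120, -0.47 ± 0.10) and LAX1 (AT5G01240, -0.57 ± 0.10) and the efflux carrier genes PIN2 (AT5G57090, -0.69 ± 0.16) and PIN4 (AT2G01420, -0.43 ± 0.11). Of 8 tested synthesis genes the flavin monooxygenase genes YUC8 (AT4G28720, -0.72 ± 0.14) and YUC2 (AT4G13260, -0.68 ± 0.19) fell. The synthesis list was split, with 4 of the 8 log2 fold changes above 0 and 4 below. By library ranges 2 of them were higher and 2 lower in every fve-8 library, beside 15.6% and 17.4% of all tested features. Without fve-8 replicate 3, 1 synthesis gene was called higher, beside 12.3% of all features. With library totals the 6 transport and synthesis genes that fell were not called (adjusted p = 0.0795 to 0.668). Under that scaling 3 synthesis genes were called higher, beside 28.6% of all tested features. Leaving out WT replicate 2 ended all 6 calls. Those of AUX1, PIN2, PIN4 and YUC2 also ended with WT replicate 1, with WT replicate 3 or with fve-8 replicate 2 left out, that of LAX1 with WT replicate 1, and that of YUC8 with WT replicate 3 or with fve-8 replicate 2.

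Of 9 tested PIF and shade-response genes, a group with factors known to act on IAA29 and IAA19, 3 rose and 1 fell. Over all tested features 6.60% were called higher and 5.07% lower. The median log2 fold change of the 9 was 0.002. PIL1 (AT2G46970), a rapid shade marker, went from 0.965, 1.67 and 1.79 CPM in WT to 4.49, 6.09 and 4.30 CPM in fve-8 (1.76 ± 0.25, edgeR adjusted p = 0.00402). PIF7 (AT5G61270, 1.35 ± 0.21) and the shade-induced homeobox gene HB-2 (AT4G16780, 0.76 ± 0.12) also rose, and the cell wall gene XTR7 (AT4G14130, -0.86 ± 0.16) fell. The 3 rises were called with each library left out, and the fall of XTR7 was not called without WT replicate 2. The other 5, PIF1 (AT2G20180), PIF3 (AT1G09530), PIF4 (AT2G43010), PIF5 (AT3G59060) and HFR1 (AT1G02340), were not called. Their log2 fold changes ran from -0.18 to 0.12. The 3 rises stand beside these uncalled genes, a fall of IAA19 and no call for IAA29.

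**Figure D5:**
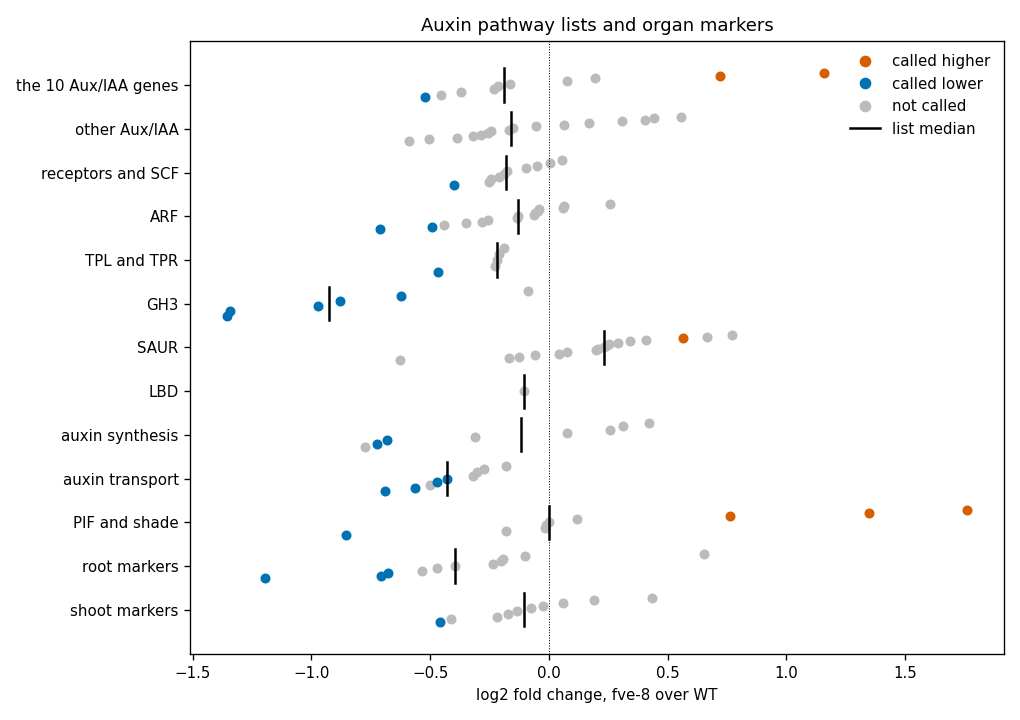
Log2 fold change of fve-8 over WT for every tested gene of the auxin pathway lists and organ marker lists, coloured by call, with a bar at each list's median. The 10 Aux/IAA genes spread from -0.52 to 1.16, while all 6 tested GH3 genes and all 9 auxin transport genes lie below 0 with TMM scaling; with library totals 1 and 4 of them lie above 0.

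Markers of both organs were present, and some root markers fell in fve-8. The 12 root markers summed to 93.5 to 103 CPM in WT and 66.9 to 68.0 CPM in fve-8. Of 11 tested 3 fell, beside 5.07% of all tested features: CASP1 (AT2G36100, -0.71 ± 0.10), TIP2;3 (AT5G47450, -1.20 ± 0.19) and COBL9 (AT5G49270, -0.68 ± 0.16). Much of the fall in the sum lay in CASP1 (means of 36.5 CPM in WT and 22.3 CPM in fve-8) and TIP2;3 (15.2 and 6.69 CPM). The other 8 tested root markers were not called. The median log2 fold change of the 11 was -0.40, and MYB36 (AT5G57620) was the 1 above 0 (0.65 ± 0.37, not called). With library totals that median was -0.05, 5 of 11 were above 0, and of the 3 calls that of TIP2;3 was kept while CASP1 (adjusted p = 0.0634) and COBL9 (adjusted p = 0.188) were not called. DESeq2 did not call COBL9 either (adjusted p = 0.0571). Without fve-8 replicate 3, MYB36 was called higher (0.94, edgeR adjusted p = 0.0367). In that fit 1 of the 11 root markers was called higher and 4 lower, beside 12.3% and 10.0% of all features. The 11 shoot markers summed to 21834 to 23368 CPM in WT and 17469 to 20919 CPM in fve-8, and 1 of 10 tested fell, LHCB1.1 (AT1G29920, -0.46 ± 0.13), which was not called with library totals (adjusted p = 0.433). DESeq2 called 2 of the 10 lower, LHCB1.1 and CAB1 (AT1G29930, -0.40, adjusted p = 0.0237). By library ranges 4 of the 10 were lower and 1 higher in every fve-8 library, beside 17.4% and 15.6% of all tested features. The 1 higher was KNAT1 (AT4G08150, 0.43 ± 0.13, not called). The calls of COBL9 and LHCB1.1 were kept only where fve-8 replicate 3 was the library left out. None of the markers of either list was at 0 in all libraries. The part of these shifts in the values of the 10 Aux/IAA genes, several of which have roles in roots or hypocotyls, was not tested.

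By Pearson correlation of log2 CPM over the 6 libraries, the genes outside the lists whose pattern was most like the mean of the 10 were AT5G50340, TZP (AT5G43630), NFD5 (AT1G19520), CCS (AT1G12520) and AT1G08750, with r from 0.97 to 0.98 among 15837 genes compared. The mean of the 10 genes moved only from -0.07 to 0.07 log2 units across libraries, because rises and falls cancelled, and such a likeness over 6 libraries is a description.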

How the data were processed

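Raw read counts per feature and library were deposited by the authors in 1 RNA table. Per the submitters' processing notes, TopHat2, SAMtools, HTSeq and edgeR were used; no source used here gives versions, genome build or strand mode. Per the labels' protocols, the kit was Illumina's TruSeq Stranded Total RNA. The deposited table also holds the authors' log2 fold changes and adjusted p-values, under DESeq2 column names per the file headers. Its 6 columns of normalised values, and the small RNA table (4 libraries), whose identifiers no source here pairs with names, were not used, so the planned look at miR393 was not made.

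Counts were fitted with genotype as the only term in edgeR 4.0.16 (R 4.3.3): filterByExpr, TMM and the quasi-likelihood test, with p-values adjusted by Benjamini-Hochberg over 19543 features. Each SE was derived from the F statistic, and each SD is over the libraries of a genotype. Log2 CPM used a prior count of 2. Alternatives used DESeq2 1.42.0, limma 3.58.1 (voom), other scalings, filters and a replicate block. On simulated counts for fve-8 against WT the test found 23.6% of genes with a 1.5-fold change, 70.8% with a 2-fold change and 98.6% with a 4-fold change, and made 12 calls among 19065 unchanged features. The simulation gave both genotypes equal spread. In the data, replicates differed beyond sampling noise, with chi-square values per degree of freedom from 2.68 to 4.10 between WT libraries and from 17.3 to 43.6 between fve-8 libraries.

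Names and gene order came from the RefSeq table of TAIR10.1, which gave the listed symbol for all 141 entries of 13 lists. Per list, up to 4 called genes with the largest change were named, besides the 10 members, FVE and the 6 receptors. The other Aux/IAA genes, MYB36, CAB1, KNAT1 and the uncalled PIF and shade genes were named after their values were seen. Members and lists were chosen with earlier results of these data known.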

Additional observations from a re-analysis of the deposited data

How the results depend on the processing

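The 2 genes called higher were IAA1 and IAA2 under every scaling, filter and test tried except library totals, which added IAA3, and the replicate block, which called 1 higher (IAA2, 1.1, adjusted p = 0.0425, against IAA1, 0.70, adjusted p = 0.0655). The count of genes called lower was 1 (IAA19) with limma-voom, DESeq2, the likelihood-ratio test, no count filter and TMM over nuclear genes only, and 0 with median-ratio size factors, with library totals, with a filter of 1 CPM in 3 libraries and with the replicate block (adjusted p = 0.0879). Leaving out each library in turn gave 0 to 2 called higher and 0 to 3 lower, with a median log2 fold change from -0.26 to -0.10. That median was 0.14 with library totals, where all features had 0.33. Same-numbered libraries did not deviate together (r = -0.01, -0.06 and -0.15), so the block is given only here; it left 768 features called higher and 461 lower, against 1290 and 990. Leaving out 1 WT library left 216 to 481 features called higher and 128 to 276 lower. Leaving out fve-8 replicate 2 left 440 and 288, and leaving out fve-8 replicate 3 gave 2444 and 1986. With library totals the log2 fold changes of IAA7, IAA14 and IAA29 became 0.12, 0.11 and 0.16, and those of TIR1, AFB2, AFB3 and AFB4 0.086, 0.14, 0.081 and 0.13; 5598 features were then called higher and 192 lower. With libraries left out in turn IAA6 ranged from -0.13 (without fve-8 replicate 1) to 0.49 and AFB1 from -0.014 (also without fve-8 replicate 1) to 0.15. Over the 39 genes named by the rule given above and 15 alternatives, 476 values kept direction and call, 96 lost the call, 4 gained one and 9 changed sign. Other genes named in the text, such as IAA4, IAA9, IAA16 and MYB36, are not in this tally. IAA6 and IAA5, the 2 genes with the fewest counts, had the largest SEs of the 10 (0.37 and 0.35); the part of depth in this was not tested.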
